A study of Mus musculus with 8 samples.

Results

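The sites described here are the autosomal places where DNA protected from micrococcal nuclease (MNase) piled up highest in wild-type (WT) mouse spermatocytes. They were chosen by the summit values of the WT spermatocyte nucleosome list: every autosomal position in the highest 0.1% of that list was taken, and positions whose summits lay within 1 kb of each other were joined into 1 site. Of 5176848 autosomal positions in that list, 5140 passed, and they formed 2069 sites. A position is a 140 bp interval around a local maximum of the smoothed coverage, and its summit value is the coverage at that maximum. A site's height is the highest summit value inside it, or within 100 bp of its ends, divided by the autosomal median of the same list, so that a height of 1 is a typical position. Because the sites were selected on the WT spermatocyte heights, those heights are a description, and any comparison with that list starts from a maximum and is tilted towards lower values in the other list.

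The study sequenced MNase-protected DNA from testis cell fractions enriched for 3 stages, spermatocyte, round spermatid and condensing spermatid, of WT and H2A.L.2-less mice. The spermatocyte and round spermatid libraries, and 1 pair of condensing spermatid libraries, hold nucleosomes, while the other pair of condensing spermatid libraries holds smaller structures. At the condensing stage the nucleosomal fragments were about 130 to 170 bp long and the small-structure fragments about 40 to 80 bp, separated on a gel before sequencing. There are 8 libraries, 1 for each combination of stage, genotype and fragment class, each merged from 3 sequencing runs, with 207000000 to 753000000 reads per sample. With 1 library per group there was no replicate check, no difference below has a test, and a difference between genotypes or stages cannot be told apart from one between individual preparations. The labels used here give no strain, age or number of animals, and no RNA or protein marker of the enriched cells was measured.

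MNase cuts the linker between nucleosomes and leaves the DNA wrapped on the histone core. In condensing spermatids most histones are removed and replaced by transition proteins and then protamines. H2A.L.2 is a histone H2A variant of the male germ line that appears late, when this exchange takes place. Small protected structures at the condensing stage are known from pericentric and other chromatin during this exchange. Very high coverage in mapped reads is known for tandem and interspersed repeats whose copies are not all in the genome assembly. No genome sequence, gene or repeat annotation of the build of these lists (mm9) was used, so no sequence is printed, no gene is assigned, and whether a given site is a repeat was not tested.

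The selection threshold was a summit value of 1048, which is 4.52 times the list median of 232. The lowest value inside was 1052, held by 32 positions, and the highest value outside was 1048, held by 46 positions. Most sites were small: 1512 of them (73.1%) held a single extreme position, 492 held 2 to 9 and 65 held 10 or more. Those 65 sites carried 2055 extreme positions, 40.0% of all. Sites with at least 2 extreme positions had a median span of 900 bp, and the longest spanned 73020 bp.

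The sites were crowded into few places. Sites linked by distances of up to 100 kb, a distance chosen after the data were seen, formed 992 runs, of which 819 were a site on its own. In contrast, 46 runs of 5 or more sites held 960 sites and 3293 extreme positions, 64.1% of all, on 14 autosomes. The run with most sites lay on chromosome 4 from 145652591 to 147185791 and held 93 sites. Runs of 69 sites each lay on chromosome 1 (84959291 to 85343641) and chromosome 8 (19681231 to 20037341), with 504 and 598 extreme positions. The 5 fullest megabase windows together held 1772 extreme positions, 34.5% of all. They were the window of chromosome 8 starting at 19000001 with 530, that of chromosome 1 at 85000001 with 470, that of chromosome 11 at 3000001 with 344, that of chromosome 1 at 87000001 with 236 and that of chromosome 9 at 3000001 with 192. The first megabase that carried positions, at the centromeric end of these telocentric chromosomes, held 13.3% of the extreme positions against 0.725% of all autosomal positions, and 16 of the 19 autosomes had a site there. The last megabase held 1.34% against 0.846%. Chromosome 14 had the most sites, 307.

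Heights spanned more than 4 orders of magnitude within each list, as the plot of site heights in the 8 lists shows. In the WT spermatocyte list 23 sites stood at 100 times the median or more and 7 at 1000 times or more. The highest site, on chromosome 2 from 98506461 to 98507541, reached 92505 times the median in WT and 110651 times in H2A.L.2-less spermatocytes, 127610 and 182427 times in round spermatids and 123313 and 153143 times in condensing spermatid nucleosomes. Its small structures reached 46163 times the median in WT and 56971 times in H2A.L.2-less condensing spermatids. This site was thus the highest in all 8 lists, lower in the small structures than in nucleosomes, and higher in H2A.L.2-less than in WT cells at each stage by 0.26 to 0.52 on the log2 scale.

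The site next in height lay at the start of chromosome 9 (3000041 to 3038241) and also held the second most extreme positions, 191. Its height was 26327 (WT) and 34779 (H2A.L.2-less) in spermatocytes, 40474 and 49214 among round spermatids, and 42555 and 44719 for condensing spermatid nucleosomes, against 7205 and 8397 in the small structures. The other sites among the 5 highest were single positions on chromosome 12 (3109911 to 3110051, height 15533 in WT spermatocytes) and chromosome 9 (35112951 to 35113091, 9221), and a site of 5 positions beside the highest one on chromosome 2 (98502441 to 98504141, 4327). The site with most positions, 336 on chromosome 11 from 3027001 to 3100021, had the opposite order of fragment classes. It reached 49.4 and 52.6 in WT and H2A.L.2-less spermatocytes, 73.8 and 63.2 among round spermatids, and 95.7 and 96.2 for condensing spermatid nucleosomes, against 203 and 196 in small structures. The remaining sites with many positions, 95 on chromosome 8 (19967631 to 19996101), 79 on chromosome 1 (85265921 to 85288211) and 71 on chromosome 1 (87479381 to 87497951), lay between 16.7 and 41.0 in every list.

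**Figure D1:**
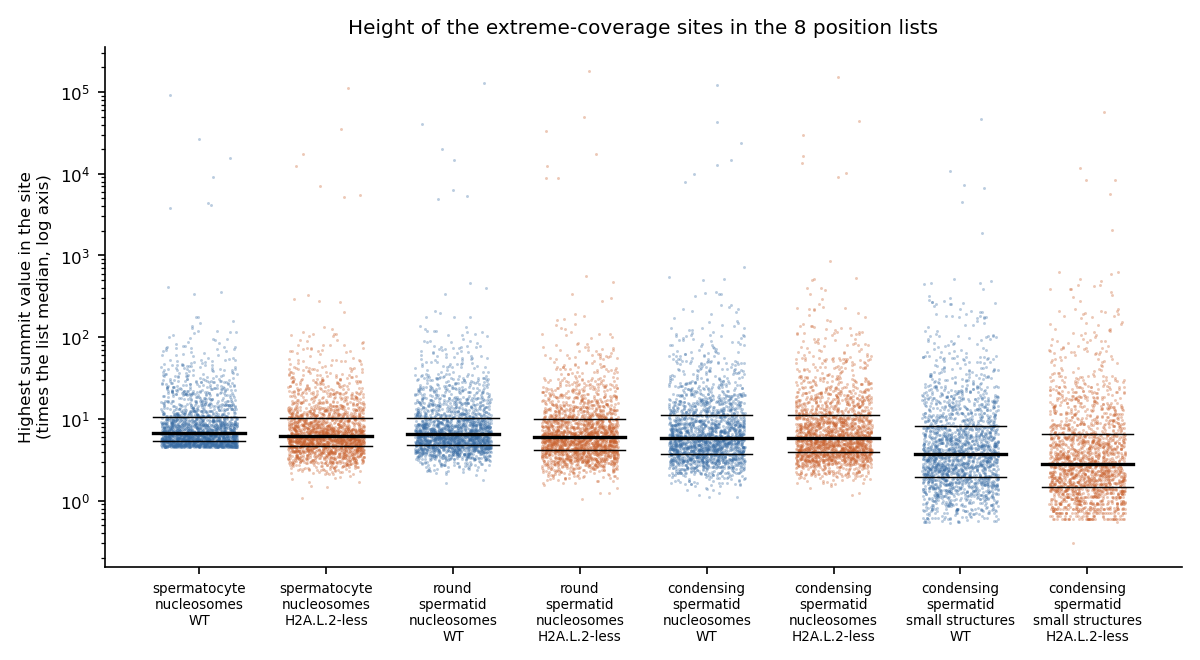
Height of each of the 2069 sites in each list, as the highest summit value over the autosomal list median, on a log axis. Points are sites, spread sideways at random, thick lines are medians and thin lines are quartiles, with WT in blue and H2A.L.2-less in orange. The WT spermatocyte column starts at the selection threshold, and the medians run from 6.72 there to 2.83 in H2A.L.2-less small structures.

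The sites were high in every nucleosome list. The median height was 6.72 (WT) and 6.16 (H2A.L.2-less) in spermatocytes, 6.47 and 5.96 among round spermatids, and 5.78 and 5.90 for condensing spermatid nucleosomes. It was 3.74 (WT) and 2.83 (H2A.L.2-less) in small structures. The SD of the 19 autosome medians lay between 0.898 and 1.88 over the lists, and the 6 nucleosome medians ranged over less than the autosome medians of any one nucleosome list did. A 1 kb window elsewhere on the autosomes had a median height between 1.08 and 1.22 in the 8 lists. Positions further down the WT spermatocyte list gave a second comparison, which is not matched in height to the sites. Its lower bound was 1.97 times the list median, against 4.52 for the selection threshold. In it, 35424 sites were built the same way from positions in the highest 1% but not the highest 0.1%. Their median heights were 2.16, 1.61, 1.70, 1.45, 1.26 and 1.29 in the nucleosome lists, in the order above, and 1.07 and 1.0 in the small structures. The fall from the selecting list to the other nucleosome lists was therefore steeper in this lower class than at the sites. In small structures the medians of both classes fell by similar factors, among sites with a position there. Of the lower class 16.8% (WT) and 33.2% (H2A.L.2-less) had no such position, against 2.75% and 7.25% of the sites. The falls in small structures are therefore not like for like, and nothing is read from their similarity.

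No site lacked a position in the 4 spermatocyte and round spermatid lists or in the WT condensing nucleosome list. Missing positions numbered 2 in H2A.L.2-less condensing nucleosomes, 57 (WT) and 150 (H2A.L.2-less) in small structures, and such sites were left out of the ratios that needed them.

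Most sites were also among the highest 0.1% of each nucleosome list at the earlier stages, and fewer later. That held for 75.3% of the sites in H2A.L.2-less spermatocytes, 79.8% (WT) and 66.0% (H2A.L.2-less) in round spermatids, 47.0% and 48.1% in WT and H2A.L.2-less condensing nucleosomes, and 36.5% and 26% in the small structures. In the same order, 0.0118%, 0.0199%, 0.0147%, 0.00901%, 0.0102%, 0.0565% and 0.0524% of the 1 kb windows outside the sites passed. Entry to the highest 0.1% took 4.52 to 4.75 times the list median in the 4 earlier lists. It took 6.1 and 6.125 times in WT and H2A.L.2-less condensing nucleosomes, and 5.37 and 5.95 times in small structures. The lower shares there thus came with higher bars, and are not a measure of falling heights. Sites in that class in all 8 lists numbered 402 (19.4%), against 9.85e-05% of the windows in the 7 lists that did not choose the sites. Those 402 had a median WT spermatocyte height of 16.5, against 6.16 for the others. Conversely, the sites held between 87.1% and 92.3% of the extreme positions of the other nucleosome lists, but 59.5% and 56.6% of those of the WT and H2A.L.2-less small structures.

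The share of a list's summed summit values that fell in the sites was 8.64% (WT) and 11% (H2A.L.2-less) in spermatocytes, 11.1% and 15.8% among round spermatids, and 15.9% and 17.0% for condensing nucleosomes. In small structures it was 4.44% and 6.02%. These shares came from 0.146% to 0.222% of the positions, and they were higher in the H2A.L.2-less list of each pair. They rested on few sites: the 23 sites of 100 times the median or more in WT spermatocytes carried 7.67% (WT) and 9.98% (H2A.L.2-less) of the summed values in spermatocytes, 10.1% and 14.9% among round spermatids, 14.3% and 15.5% for condensing nucleosomes, and 3.10% and 4.55% for small structures. The other 2046 sites carried 0.967% and 0.991%, 0.984% and 0.981%, 1.57% and 1.54%, and 1.34% and 1.48%. With the 23 also left out of the list totals, these 2046 sites carried 1.047% (WT) and 1.101% (H2A.L.2-less) in spermatocytes. The shares were then 1.094% and 1.152% in round spermatids, 1.83% and 1.818% in condensing nucleosomes, and 1.382% and 1.546% in small structures. Without the 23 the genotypes thus differed by less than with them, and only in condensing nucleosomes was the order turned.

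The order of the sites was kept best between genotypes at the condensing stage. Across the sites, Spearman's rho between WT and H2A.L.2-less heights was 0.953 in condensing nucleosomes and 0.947 in small structures, 0.856 in spermatocytes and 0.775 in round spermatids. Between stages it was 0.840 for WT spermatocytes and round spermatids and 0.898 for the H2A.L.2-less ones. H2A.L.2-less round spermatids correlated with WT condensing nucleosomes at 0.859, and WT round spermatids did so at 0.759. Nucleosome and small-structure heights of the same WT condensing cells correlated at 0.585. These coefficients describe 2069 sites, or those with both values, that share assembly positions and libraries, and are not a test.

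In the genotype comparisons a site is counted when its height differed by 2-fold or more. In spermatocytes the median log2 ratio of H2A.L.2-less over WT was -0.15 (SD of the autosome medians 0.15). There 71 sites (3.43%) were lower and 1 was higher, against 0.298% and 0.208% of the 1 kb windows elsewhere. In round spermatids the median was -0.19 (SD 0.17), with 104 sites (5.03%) lower and 60 (2.90%) higher, against 0.582% and 0.460% of the windows. In condensing nucleosomes it was 0.05 (SD 0.04), with 7 sites lower and 9 higher, against 0.0627% and 0.0963%. In small structures the median was -0.43 (SD 0.10), with 187 sites (9.81%) lower and 12 higher, against 1.22% and 0.530%. Windows elsewhere had heights near 1, and the lowest percentile of values in a list was 0.55 to 0.84 of its median, so a 2-fold fall there would mostly pass below the values listed, which lowers the window shares. When the sites were chosen on H2A.L.2-less spermatocytes instead, the lower share was 0.285% for spermatocytes and 0.855% for round spermatids, so the 3.43% and 5.03% above depend on the selecting list. In the lower class of sites 8.54% were lower by 2-fold in H2A.L.2-less spermatocytes, 3.48% in round spermatids and 4.12% in small structures. The spermatocyte share of the sites, 3.43%, was thus below that of the lower class, so its excess over the windows is not read as a result.

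The lower heights in H2A.L.2-less spermatocytes and round spermatids were concentrated on chromosome 14. Its autosome medians were -0.70 and -0.66, the lowest of the 19, and chromosome 13 followed with -0.38 and -0.43, as the plot of autosome medians shows. Without chromosome 14 the share of sites lower by 2-fold was 0.738% in spermatocytes and 1.31% in round spermatids. Of 35 sites lower at both stages, 30 lay on chromosome 14, where 0.00722% of windows genome-wide met this rule. In condensing nucleosomes the median of chromosome 14 was 0.02 and the highest, 0.18, was that of chromosome 13. Small structures had no such autosome, and all 19 medians lay between -0.55 and -0.21.

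**Figure D2:**
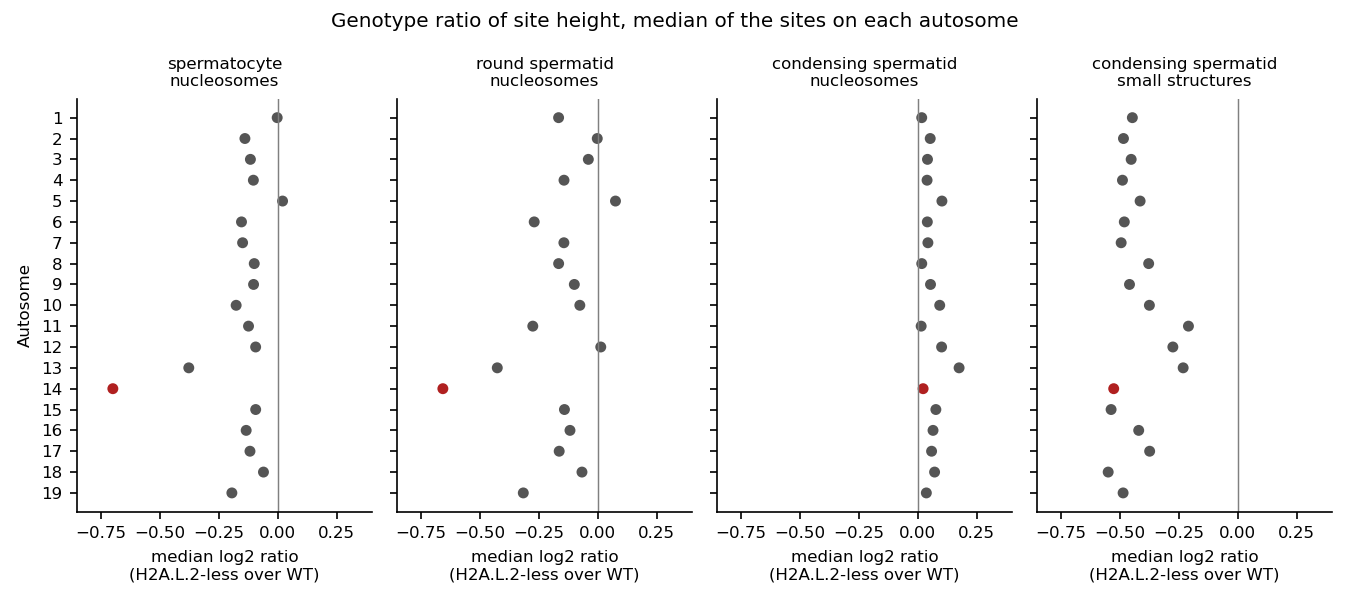
Median log2 ratio of site height, H2A.L.2-less over WT, for the sites on each of the 19 autosomes, in the 3 nucleosome comparisons and in small structures. Each point is 1 autosome and the vertical line marks equal heights. Chromosome 14, in red, stands at -0.70 in spermatocytes and -0.66 in round spermatids but at 0.02 in condensing nucleosomes.

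On chromosome 14 the pattern was found at 185 sites between 3 and 8.5 Mb, a stretch delimited after the data were seen. Their median height was 5.66 (WT) and 3.18 (H2A.L.2-less) in spermatocytes, and 5.82 and 2.98 in round spermatids. In condensing nucleosomes it was 3.34 (WT) and 3.23 (H2A.L.2-less). The 2 WT lists of the earlier stages thus stood apart from the other 4 nucleosome lists, which lay close together, WT condensing spermatids among them. As log2 ratios, H2A.L.2-less over WT was -0.89 in spermatocytes (below 0 at 182 of 185 sites) and -0.91 in round spermatids (182 of 185), 0.00 in condensing nucleosomes (91 of 185) and -0.47 in small structures (144 of 172). From round to condensing spermatids the WT ratio was -0.82, and the H2A.L.2-less ratio was 0.13. The ratio was not limited to the tallest positions, since the median over all 1 kb windows of the stretch was -0.43 in spermatocytes, -0.37 among round spermatids, and 0.02 for condensing nucleosomes. With the sites chosen on H2A.L.2-less spermatocytes, which tilts the choice the other way, the stretch medians were -0.73, -0.82 and -0.05.

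A smaller difference of the same kind was found on chromosome 13 between 65 and 67 Mb, where 82 sites had medians of -0.52 in spermatocytes, -0.59 among round spermatids, and 0.20 for condensing nucleosomes. The 1802 sites outside both stretches had medians of -0.11, -0.14 and 0.05. Outside chromosome 14, the 5 sites lower by 2-fold at both earlier stages each held a single extreme position. They lay on chromosome 7 (39184351 and 39189291), chromosome 11 (98543611) and chromosome 17 (79208921 and 85346441). Both chromosome 7 sites belong to a run of 5 sites from 39184351 to 39235931. Its median heights were 5.0 (WT) and 2.80 (H2A.L.2-less) in spermatocytes, 4.65 and 1.78 among round spermatids, and 1.92 and 2.42 for condensing nucleosomes. The lowest spermatocyte ratio of all, -2.22, was that of chromosome 7 from 39189291 to 39189431. There the height was 5.0 (WT) and 1.07 (H2A.L.2-less) in spermatocytes, 4.82 and 1.78 among round spermatids, and 1.92 and 2.25 for condensing nucleosomes. The lowest round spermatid ratio, -2.08, was that of chromosome 17 from 85346441 to 85346581, with 11.6 (WT) and 2.75 (H2A.L.2-less).

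A run of 10 sites on chromosome 11, from 116603021 to 116636691, differed in a further way. It holds 59 extreme positions in 33670 bp. The median height of all positions in the run was 3.91 (WT) and 2.07 (H2A.L.2-less) in spermatocytes, and 3.57 and 2.10 in round spermatids. In condensing nucleosomes the order was turned, with 1.21 (WT) and 2.77 (H2A.L.2-less), and small structures had 1.59 and 2.45. Flanking positions had medians between 0.94 and 1.25 in all 8 lists. WT cells were thus higher than H2A.L.2-less cells before condensation and close to the flanks at the condensing stage, whereas the H2A.L.2-less lists stayed at more than 2 times the median throughout.

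Every one of the 10 sites had this order, but the run was chosen after its values were seen. Its sites are neighbours read from the same libraries, so they do not count as separate observations. The share of all sites with such an order was not computed. Heights of the 10 sites ran from 5.83 to 8.45 in WT and 3.50 to 5.71 in H2A.L.2-less spermatocytes, and from 4.93 to 9.18 and 2.65 to 5.18 in round spermatids. In condensing nucleosomes they ran from 1.38 to 2.92 in WT and 3.19 to 5.08 in H2A.L.2-less cells, without overlap. In small structures the ranges were 1.42 to 3.69 and 1.6 to 10.5 and did overlap. The largest site, from 116613561 to 116618651, held 18 extreme positions and had a WT log2 ratio of condensing over round spermatids of -2.49, against -0.24 in H2A.L.2-less cells. A single position on chromosome 17 (79208921 to 79209061) had nearly the same course, with 8.55 and 3.30 in spermatocytes, 8.60 and 3.61 among round spermatids, and 1.12 and 3.13 for condensing nucleosomes. Its condensing log2 ratio of H2A.L.2-less over WT, 1.48, was the highest of all sites, and its WT ratio of condensing over round spermatids, -2.94, was the lowest.

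**Figure D3:**
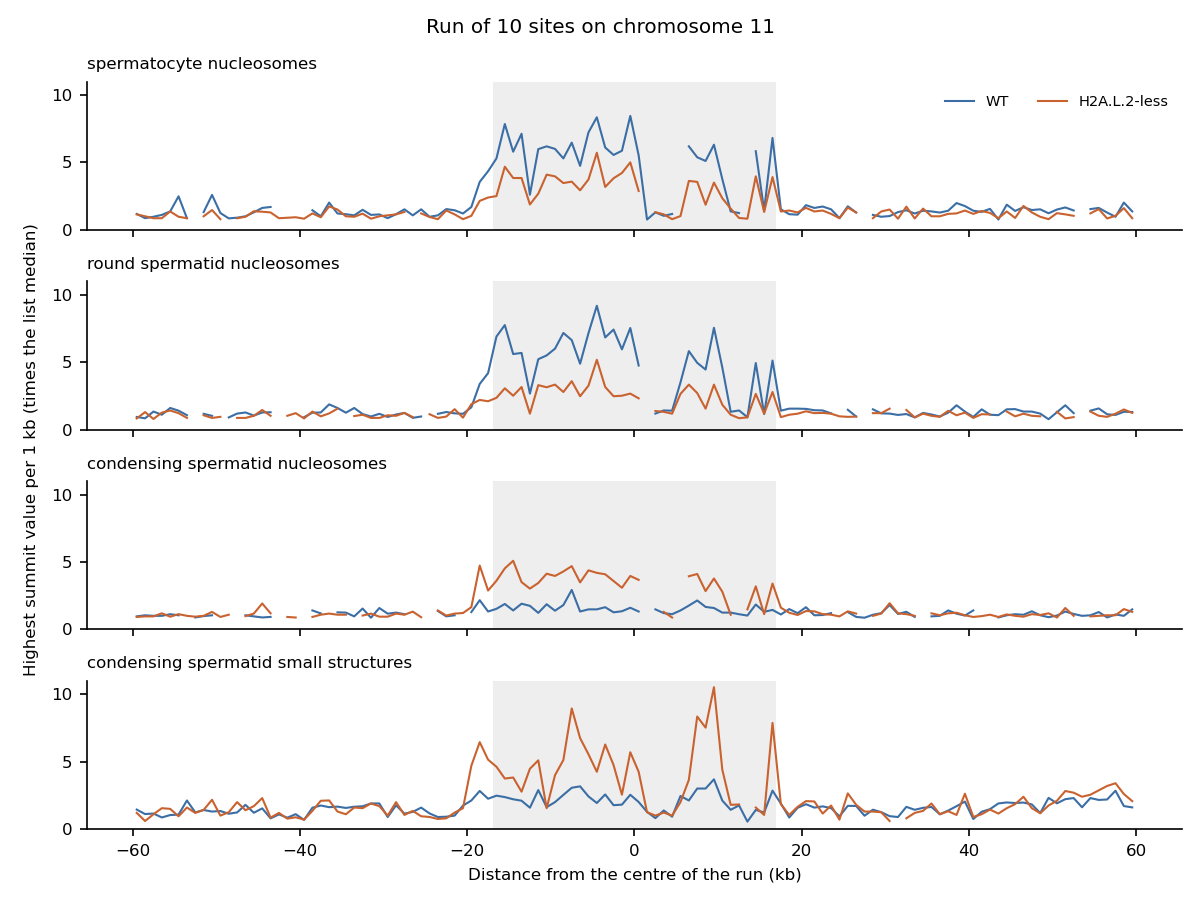
Highest summit value in each 1 kb, over the list median, across the run of 10 sites on chromosome 11, by distance from its centre. Blue lines are WT, orange lines are H2A.L.2-less, gaps are windows without a position, and the grey band is the run of 33670 bp. WT is above H2A.L.2-less in spermatocytes and round spermatids and below it in condensing nucleosomes and in most windows of the small structures.

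The 60 sites higher by 2-fold in H2A.L.2-less than in WT round spermatids were of another kind. They were spread over 18 autosomes, 58 were single positions and 50 stood alone within 100 kb. Their median height was 4.0 (WT) and 8.79 (H2A.L.2-less) in round spermatids, against 5.77 and 6.55 in spermatocytes and 8.45 and 8.63 in condensing nucleosomes. The gap in round spermatids is fixed by the choice of these sites. In the lists that did not choose them, the genotypes lay closer together. Of the 50 with a WT small-structure value, 38 were lower by 2-fold or more in small structures than in nucleosomes, with a median log2 ratio of -2.09 against -0.57 for all sites.

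The tallest of the 60 was a single position on chromosome 6 from 103599101 to 103599241, with 4118 (WT) and 7173 (H2A.L.2-less) in spermatocytes, 5288 and 12531 among round spermatids, and 12768 and 13662 for condensing nucleosomes, against 517 and 632 in small structures. The site on chromosome 4 from 64158811 to 64159051 was the only one past 2-fold in the same direction in 3 of the 4 genotype comparisons, and no site was in all 4. Its height was 95 (WT) and 204 (H2A.L.2-less) in spermatocytes, 109 and 278 among round spermatids, and 552 and 512 for condensing nucleosomes. Its small structures stood at 1.09 and 3.30, close to an ordinary position. Positions on chromosome 3 (95848611 to 95848751) and chromosome 16 (86821051 to 86821371) resembled it. The former had 10.2 (WT) and 32.1 (H2A.L.2-less) in round spermatids, 41.1 and 43.4 in condensing nucleosomes and 0.748 and 0.875 in small structures. The latter had 10.4 and 21.7, 41.0 and 40.4, and 1.26 and 1.13.

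Of 187 sites lower by 2-fold in H2A.L.2-less small structures, 168 were single positions, found on all 19 autosomes. Their median small-structure height was 3.21 (WT) and 1.33 (H2A.L.2-less), while their condensing nucleosome heights were 5.24 and 5.40. The position on chromosome 15 from 59973381 to 59973521 was the lowest, with 14.8 (WT) and 2.15 (H2A.L.2-less) in small structures, and it was also the lowest in condensing nucleosomes, with 9.94 and 3.65. The median summit value was 492 in the WT small-structure list and 160 in the H2A.L.2-less one, a wider gap than in any other pair, and its part in these ratios was not tested.

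Between stages the medians were small and the spread over sites was wide. From spermatocytes to round spermatids the median log2 ratio was -0.08 in WT, with 38 sites lower and 2 higher by 2-fold, against 0.282% and 0.394% of windows. It was -0.09 in H2A.L.2-less cells, with 18 lower and 9 higher, against 0.329% and 0.318%. From round to condensing nucleosomes it was -0.18 in WT, with 162 sites (7.83%) lower and 91 (4.4%) higher, against 1.28% and 0.335%. In H2A.L.2-less cells that step was 0.05, with 49 (2.37%) lower and 130 (6.29%) higher, against 0.389% and 0.218%. In the lower class of sites, 7.18% (WT) and 1.84% (H2A.L.2-less) were lower in round spermatids than spermatocytes, and 8.76% and 2.33% were lower at the condensing stage than in round spermatids. The shares of lower sites were thus close to or below those of the lower class, and nothing is read from them. The shares higher at the condensing stage were above those of the lower class, which were 0.973% (WT) and 0.840% (H2A.L.2-less). The lower WT sites included 67 of the 185 on chromosome 14, and without chromosome 14 the WT share was 4.88%.

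Only 36 sites were higher by 2-fold at the condensing stage in both genotypes, against 0.0304% of windows, and 10 were lower in both, against 0.0278%. The 36 were tall, with medians of 20.8 (WT) and 18 (H2A.L.2-less) in round spermatids against 48.6 and 50.5 in condensing nucleosomes, and 30 of them stood alone within 100 kb. The largest rise was at chromosome 16 from 11144121 to 11144261. Its height was 38.9 (WT) and 31.6 (H2A.L.2-less) in spermatocytes, 59.6 and 40.6 among round spermatids, and 509 and 531 for condensing nucleosomes, against 118 and 141 in small structures. Chromosome 11 from 108873021 to 108873381 went from 35.9 and 29.2 in round spermatids to 233 and 220 in condensing nucleosomes, and chromosome 16 from 57391421 to 57391741 from 60.6 and 38.1 to 317 and 291. At these 3 sites, named for their stage ratio, the genotypes lay close together and the stages far apart.

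In WT the direction of the stage difference went with the height of the site. Among 1519 sites under 10 times the median in WT spermatocytes, the WT ratio of condensing over round spermatids had a median of -0.25. It was 0.01 at the 527 sites of 10 to 100 times and 0.26 at the 23 sites of 100 times or more. In H2A.L.2-less cells the medians were 0.02, 0.14 and 0.12, all above 0 and in no order of height. The chromosome 14 and 13 stretches had upper quartiles of 7.19 and 6.84 in WT spermatocytes, so most of their sites are in the lowest class. Their WT medians for this step were -0.82 and -0.50, against -0.10 at all other sites. The height classes without the stretches were not computed. From spermatocytes to round spermatids, 17 of the 23 tallest sites were higher in WT, with a median of 0.22, and 20 of 23 in H2A.L.2-less cells, with a median of 0.50. The 23 tallest include positions of the same clusters, so they are not independent.

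By the shares past 2-fold, fragment class divided the sites more than stage or genotype did. The sites were chosen on a nucleosome list, so lower small structures are partly fixed by the choice. Spearman's rho with the selecting WT spermatocyte heights was 0.748 for WT condensing nucleosomes and 0.492 for WT small structures. Small structures were lower than nucleosomes by a median of 0.57 on the log2 scale in WT (SD of the autosome medians 0.37), with 764 of 2012 sites (38.0%) lower and 171 (8.5%) higher by 2-fold. In H2A.L.2-less cells the median was -1.05 (SD 0.41), with 995 of 1917 (51.9%) lower and 133 (6.94%) higher. In the windows elsewhere 3.26% were lower and 6.94% higher in WT, and 4.25% and 10.4% in H2A.L.2-less cells. The lower class of sites had 15.3% lower and 4.10% higher in WT, and 21.0% and 4.53% in H2A.L.2-less cells. Its condensing nucleosome medians were 1.26 (WT) and 1.29 (H2A.L.2-less), against 1.08 and 1.125 in the windows. The lowest listed values therefore limit its lower shares too. Only 25631 (WT) and 20983 (H2A.L.2-less) of its 35424 sites had both values. More sites were thus lower than higher in both classes of sites, and the reverse held in the windows. In both genotypes together 645 sites were lower, against 0.596% of windows, and 116 were higher, against 4.20%. The 645 were 84.4% of those lower in WT and 64.8% of those lower in H2A.L.2-less cells. The 116 were 67.8% and 87.2% of those higher.

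The 116 sites richer in small structures had median heights of 32.4 (WT) and 29.5 (H2A.L.2-less) in small structures, against 9.12 and 9.98 in nucleosomes of the same stage. The largest excess was at chromosome 13 from 77578151 to 77578291. There small structures reached 1902 (WT) and 2047 (H2A.L.2-less), while condensing nucleosomes stood at 64.4 and 79.9, round spermatids at 135 and 125 and spermatocytes at 63.8 and 80.9. Chromosome 13 from 113368381 to 113368521 had 202 and 211 in small structures against 8.76 and 9.94 in nucleosomes. Chromosome 17 from 31707381 to 31707521 had 139 and 113 against 8.56 and 13.4. All 3 are single positions. In condensing nucleosomes the first stood far above the upper quartile of all sites, which was 11.1 in either genotype, and the second stood below it.

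Among tall sites the fragment classes fell into separate bands, visible in the plot of small structures against nucleosomes. This was noticed in the plot and then counted. In WT 247 sites had a condensing nucleosome height of at least 20. Of these, 117 had small structures lower by 4-fold or more, 97 of them at log2 ratios between -3 and -2, whereas only 18 lay between -2 and -1, 33 between -1 and 0, 42 between 0 and 1 and 37 above 1. In H2A.L.2-less cells 261 sites of that height had both values, with 87 at ratios between -4 and -3, 25 between -3 and -2, 21 between -2 and -1, 39 between -1 and 0, 37 between 0 and 1 and 40 above 1. The low band was thus deeper in H2A.L.2-less cells than in WT. Of the 117 WT sites in it, 116 were also lower by 4-fold or more in H2A.L.2-less cells, against 9 of the other 130.

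The bands also differed in crowding. In the low band 101 of 117 sites were single positions and 101 stood alone within 100 kb, against 49 and 67 of the 130 others, and both bands were found on all 19 autosomes. The medians of condensing nucleosomes were alike, 39.2 (WT) and 40.6 (H2A.L.2-less) for the low band and 40.7 and 42.1 for the others. Spermatocyte medians were 21.0 and 17.8 in the low band and 34.8 and 33.0 in the others. The bands were defined on WT condensing heights, which the H2A.L.2-less ones follow closely, so a higher condensing than round spermatid value is partly fixed by the choice. In H2A.L.2-less cells, condensing nucleosomes were higher than round spermatids at 111 of 117 low-band sites, with a median log2 ratio of 0.90 and quartiles of 0.75 and 1.05, against 94 of 130 and a median of 0.28.

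**Figure D4:**
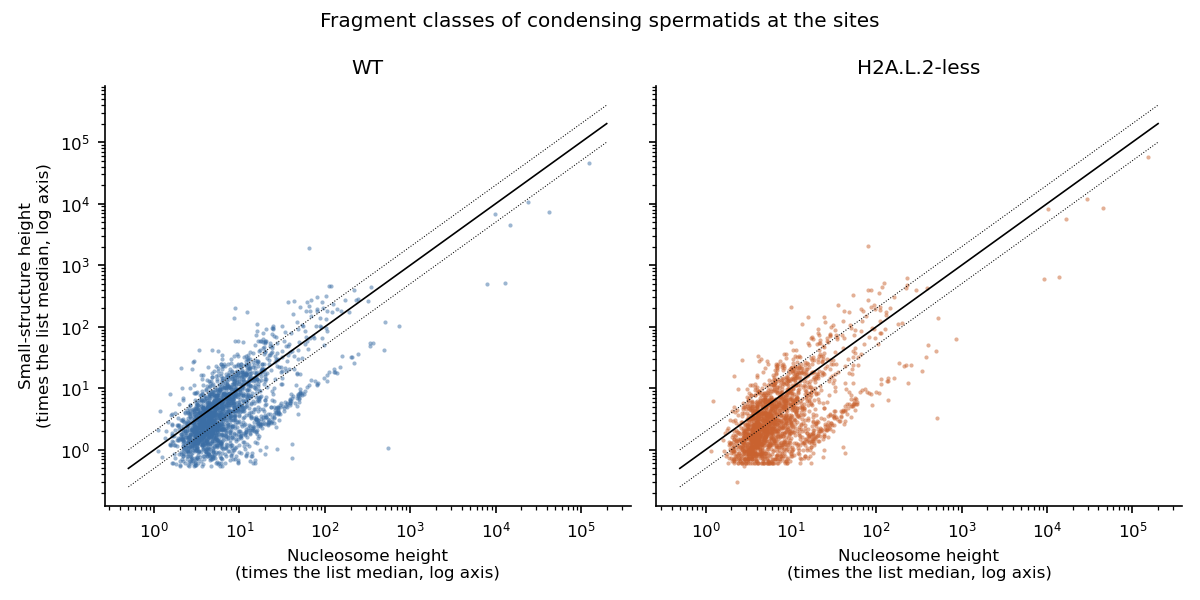
Height of the sites in small structures (vertical, log axis) against nucleosomes (horizontal, log axis) of condensing spermatids, WT left and H2A.L.2-less right, each point a site with both values. The solid line marks equal heights and dotted lines mark 2-fold differences. A band of sites runs parallel to and below the lines, and in WT it includes most of the 117 sites of nucleosome height 20 or more whose small structures are lower by 4-fold or more.

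Spacing was measured between neighbouring summits inside a site, up to 1000 bp apart. The median gap inside sites was 180 bp in both spermatocyte lists and in WT round spermatids, 170 bp in H2A.L.2-less round spermatids, 160 bp in condensing nucleosomes of both genotypes, and 170 bp in the small structures. Outside the sites the medians were 250 (WT) and 260 bp (H2A.L.2-less) for spermatocytes, 240 and 290 bp among round spermatids, 310 and 300 bp for condensing nucleosomes, and 210 and 230 bp among small structures. Summits were thus closer inside the sites in all 8 lists, as the plot of gaps shows. The length of the sites limits the gaps inside, so this difference is partly fixed by the measure. The commonest gap inside was 160 bp at the spermatocyte and round spermatid stages, against 180 bp outside, and 120 bp in condensing nucleosomes, against 130 bp outside. Gaps under 170 bp made up 44.9% to 52.2% inside the sites and 17.2% to 33.6% outside.

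**Figure D5:**
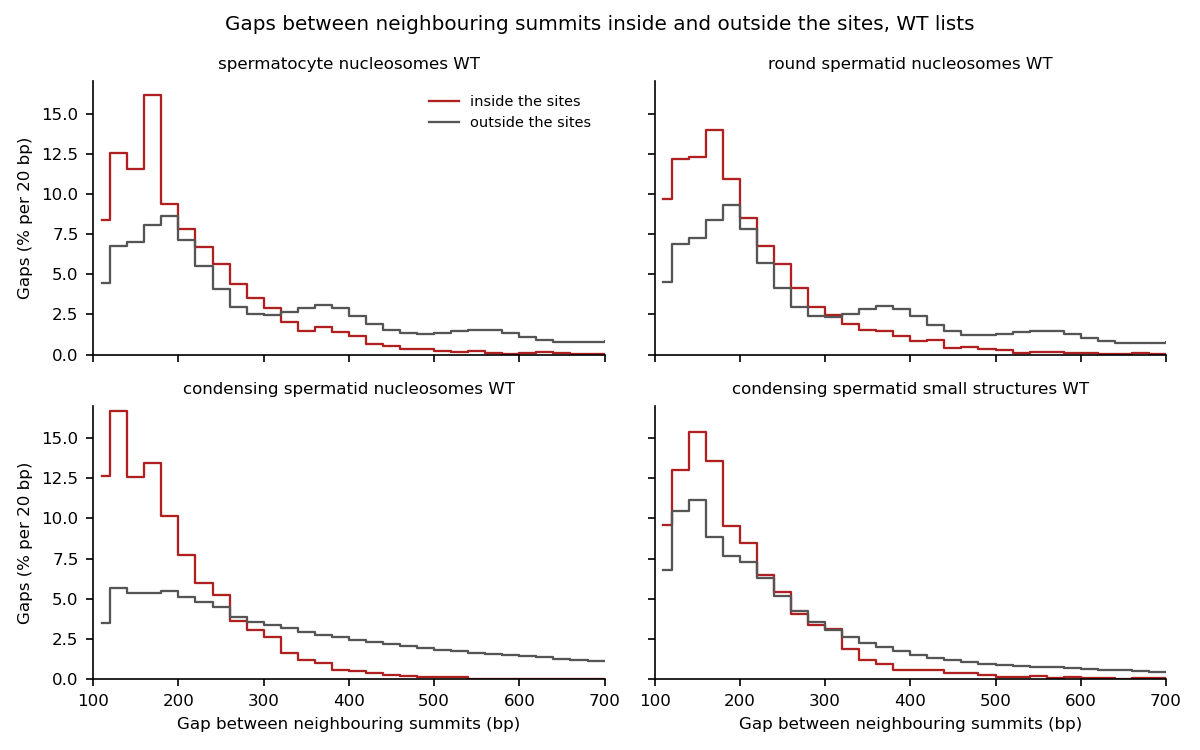
Share of gaps between neighbouring summits in steps of 20 bp, inside the sites (red) and outside them (grey), in the 4 WT lists. Gaps outside the sites in spermatocytes and round spermatids have later humps, at about 360 bp and beyond, that the gaps inside lack, and gaps inside are shorter in each list. The length of the sites limits the gaps inside, so this is partly fixed by the measure.

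Regular arrays were less marked inside the sites. In the 121 sites longer than 2 kb, the density of summit pairs at about 2 nucleosome repeats (330 to 450 bp) was compared with the trough before it (230 to 330 bp). The ratio was 1.24 (WT) and 1.29 (H2A.L.2-less) in spermatocytes and 1.34 and 1.40 in round spermatids, against 1.62, 1.80, 1.74 and 2.05 outside the sites. In condensing nucleosomes it was 1.06 and 1.03 inside and 1.01 and 1.01 outside, and in small structures 1.08 and 1.11 inside and 1.0 and 1.0 outside. Periodic spacing was therefore seen at the earlier stages both inside and outside, and at the condensing stage hardly in either. The peak inside lay at 380 bp in the 4 earlier lists, against 360 bp outside.

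Among the sites with most extreme positions, only that at the start of chromosome 9 kept the same median gap in every nucleosome list. At the start of chromosome 9 the median gap was 180 bp in each of the 6 nucleosome lists, and 160 bp in the small structures of either genotype, with 194 to 221 summits. At the 73020 bp site of chromosome 11 it was 180 to 200 bp in every list, with 353 to 399 summits, of which 336 to 392 were in the list's own highest 0.1%. There the WT gap was 200 bp in spermatocytes and round spermatids and 180 bp in condensing nucleosomes. The chromosome 8 site from 19967631 had 200 bp in both spermatocyte lists and 180 bp in both condensing nucleosome lists. In contrast, the chromosome 1 site from 87479381 had 180 bp in WT spermatocytes and 200 bp in WT condensing nucleosomes.

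The highest summit sat at nearly the same base in the different lists. In the 1512 sites of a single extreme position it lay within 20 bp of the WT spermatocyte summit at 87.8% of sites in H2A.L.2-less spermatocytes, 85.5% and 83.1% in WT and H2A.L.2-less round spermatids and 74.6% and 74.3% in condensing nucleosomes. In small structures this was so at 48.6% and 45.3%. In the lower class of sites the shares were 64.5%, 61.7%, 55.4%, 34.5%, 34.6%, 26.1% and 23.1%.

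The fuzziness score, in which a lower value means reads placed more tightly around the summit, gave opposite answers for all summits of a site and for its highest one. Over all summits, the median inside minus outside was 0.68 (WT) and 1.5 (H2A.L.2-less) in spermatocytes, 0.96 and 2.18 in round spermatids, 2.58 and 2.50 in condensing nucleosomes and -0.39 and 1.1 in small structures. The SD of that difference over the 19 autosomes was 1.77 to 2.31, so it exceeded the spread only in H2A.L.2-less round spermatids and both condensing nucleosome lists. The highest summits of the sites were lower than the positions outside by 3.89 to 6.36 in the 8 lists, and on all 19 autosomes in each. Sites alone within 100 kb had medians of 41.9 to 44.3 for their highest summits, against 47.8 to 53.8 for sites in runs of 5 or more. Lone sites thus had the tightest summits, and crowded sites lay nearer the level outside, which was 50.2 to 54.3. The highest summits of the lower class of sites had medians of 48.5 to 54.2, above those of the sites in each list, which were 45.8 to 50.4.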

How the data were processed

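MNase-seq position lists of 8 libraries were used. Per the submitters' processing notes, reads were aligned with Bowtie2 2.2.9 to mm9 and deepTools 2.2.4 was used, and per the series' design text runs were merged after alignment. The caller's settings are not given in the sources used here. The deposited smt_value is a signal (smoothed coverage at the summit, all values multiples of 4, with no header stating its scaling), and the deposited fuzziness score is the authors' score of how loosely reads surround a summit. Coordinates are printed as the files give them. Because the scaling is not stated, each list was divided by its own autosomal median before lists were compared, and counting errors could not be given.

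Sites, heights, ratios, gaps and fuzziness were computed with Python 3.11.15, numpy 2.4.6 and pandas 2.3.3, on the autosomes. Differences of 2-fold or more were counted, with 1 kb windows outside the sites and sites of the highest 1% without the highest 0.1% as backgrounds. With 1 library per group no test was made. The functions were tested on simulated lists. Alternatives concerned the quantile, merging distance, selecting list, scaling, site value, margin, fold and left-out sites. Sites named in the text were the 5 highest, the 5 with most positions, the 3 highest and 3 lowest ratios of each comparison and those past 2-fold in most genotype comparisons. The members and lists were chosen with earlier results of these data known. Runs, the chromosome 13 and 14 stretches, the chromosome 11 run, the 5 sites listed beside chromosome 14 and the tall-site bands, named beyond that rule, were chosen after seeing the values. Chromosomes X, Y and M were left out of the sites.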

Additional observations from a re-analysis of the deposited data

Results flagged for a closer look

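A few sites had genotype differences of 2-fold or more in opposite directions at different stages. The difference between stages was not tested, since each value rests on 1 library per genotype. On chromosome 11, in the run described above, the log2 ratio of H2A.L.2-less over WT was -1.30 in round spermatids and 1.42 in condensing nucleosomes at 116603021 to 116606791. It was -1.5 and 1.31 at 116619561 to 116620601, and -1.18 and 1.25 at 116629051 to 116629631. On chromosome 17, from 79208921 to 79209061, it was -1.37 in spermatocytes, -1.25 among round spermatids, and 1.48 for condensing nucleosomes.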

How the results depend on the processing

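No paired analysis was possible because each group has 1 library. The shares of sites past 2-fold in the commoner direction of each of the 10 comparisons were recomputed, and 119 of 180 values stayed within 1.5 times. The share of summed values without the 23 tallest sites, also added after seeing the data, is given with the main values. The causes of the moves below were not tested.

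With positions chosen from the highest 0.5% there were 14773 sites and from the highest 0.01% there were 168. Shares lower in H2A.L.2-less cells were then 7.88% and 0% in spermatocytes and 5.28% in small structures (0.5%), and 0% in round spermatids (0.01%), where condensing nucleosomes had 0% higher. Shares lower in round spermatids than spermatocytes were 6.08% and 0% in WT and 1.91% and 0% in H2A.L.2-less cells. From round to condensing spermatids, 0.595% were lower in WT (0.01%), and 1.89% (0.5%) and 14.9% (0.01%) higher in H2A.L.2-less cells. Small structures were lower than nucleosomes at 24% (WT) and 32.8% (H2A.L.2-less) (0.5%).

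Sites chosen on H2A.L.2-less spermatocytes were lower in H2A.L.2-less cells at 0.285% in spermatocytes and 0.855% in round spermatids, and lower at the condensing stage in WT at 4.10%. Sites chosen on WT round spermatids gave 7.57% lower in H2A.L.2-less round spermatids and 0.563% lower in WT round spermatids than spermatocytes. Merging within 5 kb gave 0.216% higher in H2A.L.2-less condensing nucleosomes. Scaling by the 90% quantile gave 14.8% lower in H2A.L.2-less small structures and 4.88% lower at the WT condensing stage, and ratios relative to the windows gave 4.49% for the latter.

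The mean of a site's summits gave genotype shares of 7.06% (spermatocytes), 8.36% (round spermatids) and 2.85% (condensing nucleosomes), and 5.46% (WT) and 3.72% (H2A.L.2-less) lower in round spermatids than spermatocytes. Summed values gave 1.79% higher in H2A.L.2-less condensing nucleosomes and 2.17% lower from H2A.L.2-less spermatocytes to round spermatids. Sites of 2 or more positions gave genotype shares of 1.08% (condensing nucleosomes) and 3.42% (small structures), 0.180% in each genotype from spermatocytes to round spermatids, 4.67% at the WT condensing stage and 19.9% and 34.2% for fragment class. Without chromosome 14, the autosome with most sites, the genotype shares were 0.738% and 1.31% and the WT condensing share 4.88%. Without the chromosome 14 and 13 stretches, an alternative added after seeing the data, they were 0.721%, 1.5% and 4.72%.

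At 1.5-fold the genotype shares were 14.3%, 18.4%, 2.81% and 36.8%, the stage shares 12.1%, 24%, 7.49% and 16.6% (WT, then H2A.L.2-less). At 4-fold the genotype shares were 0.0483%, 0.0483%, 0% and 0.210%, the stage shares 0%, 0.290%, 0% and 0.387%, and the fragment class shares 17.6% and 25.2%.

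Only sites of 5 or more summits had median gaps of 190 bp in WT spermatocytes, 170 bp for condensing nucleosomes of either genotype, and 180 bp in WT small structures, and extreme positions alone gave 240 bp. The fuzziness difference changed sign for highest summits, to -6.36 and -5.18 in spermatocytes, -5.68 and -4.25 in round spermatids, -3.94 and -3.89 in condensing nucleosomes and -4.4 in H2A.L.2-less small structures, and moved to -6.32 in WT small structures. Linking sites within 50 or 500 kb, also added later, gave 62.3% and 66.6% of extreme positions in runs of 5 or more sites, and the highest 0.01% gave 16.6%.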

Other observations

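Chromosomes X, Y and M took no part in the choice of sites. Positions above the autosomal 0.1% threshold of their own list made up 1.25% (WT) and 1.83% (H2A.L.2-less) of the chromosome X positions for spermatocytes, 1.85% and 3.07% for round spermatids, 4.07% and 3.73% for condensing nucleosomes and 1.04% and 0.748% for small structures. On chromosome Y the shares were 12% and 15.8%, 16.3% and 20.8%, 23.3% and 23.3%, and 12.3% and 10.3%. The numbers of positions on X fell with stage, from 130101 and 89266 in spermatocytes to 63411 and 46411 among round spermatids, and 30865 and 32555 for condensing nucleosomes. On M the median height was 4.84 (WT) and 5.74 (H2A.L.2-less) in condensing nucleosomes, over 95 and 90 positions, and 0.89 to 0.97 in the 4 earlier lists, over 5 to 21 positions.

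Gaps between neighbouring summits fell on even multiples of 10 bp more often where the summits were higher. In WT spermatocytes 46.4% of gaps were multiples of 20 bp where the lower of the 2 summits was under the list median, 49.8% at 1 to 2 times, 62.9% at 2 to 4.5 times and 83.2% at 4.5 times or more. At 4.5 times or more the share was 79.7% to 87.7% over the 8 lists. Gaps inside the sites were multiples of 20 bp in 62.0% to 74.9% of cases, against 45.6% to 53.9% outside, so the commonest gaps given above rest on this step as well.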
